A study of Mus musculus with 10 samples.

Results

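Transcripts that mark neutrophils, namely Retnlg, Wfdc21 and Ly6g, were followed in bone marrow from mice with MLL-AF9 leukaemia. They were taken by name from a table of 10141 genes, and all 3 were present. They had been chosen by their measured expression in these libraries, for the size of their drop in leukaemia, so this difference is described here without a test. The leukaemia libraries were GFP+ cells, which bear the fusion gene MLL-AF9 together with GFP, and the myeloid libraries were cells negative for GFP and positive for the integrin CD11b (5 libraries each). Both came from CD45.1 recipient mice that had received MLL-AF9/GFP cells through the tail vein, and marrow was taken once GFP+ cells made up 2% of peripheral blood. All 10 libraries carry the same genotype entry, MLL-AF9/GFP, also those of GFP- cells, and no group of mice without leukaemia was analysed here. The labels give no age, sex or further strain for the recipients. CD11b is carried by neutrophils, monocytes and part of the macrophages and dendritic cells, so the myeloid libraries are a mixture. No label names the mouse of a library, and the spread between libraries may be partly technical. Libraries are numbered 1 to 5 in both groups, and whether a shared number marks the same mouse is not stated.

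Neutrophils are made in the marrow in steps. Promyelocytes first fill primary granules with proteases and myeloperoxidase, later stages fill secondary and tertiary granules, and the last stages put on the receptors used in blood and tissue. Retnlg encodes a small cysteine-rich hormone of the resistin family that is secreted and is made by marrow neutrophils. Wfdc21 encodes a small secreted protein of the whey acidic protein (WAP) family, whose members include protease inhibitors. Ly6g encodes a GPI-anchored surface protein that antibodies use to sort mouse neutrophils, and its surface level goes up as the cells mature.

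RefSeq (GRCm38.p6) promoter windows were at hand for Ly6g and Retnlg, 2 of the 3 genes, and reach from 250 bases before to 50 bases after a transcript start. They are shown because the transcripts were low together in leukaemia and high together in myeloid cells. Capitals mark the letters searched for on both strands: TTNCNNAA, bound by C/EBP factors, GGAAGT, bound by PU.1 and other Ets factors, TGTGGT, bound by Runx factors, and the TATA box TATAAA. The Ly6g window lies at chr15:75155011-75155310 on the plus strand, and the Retnlg window at chr16:48872358-48872657 on the plus strand.
Ly6g: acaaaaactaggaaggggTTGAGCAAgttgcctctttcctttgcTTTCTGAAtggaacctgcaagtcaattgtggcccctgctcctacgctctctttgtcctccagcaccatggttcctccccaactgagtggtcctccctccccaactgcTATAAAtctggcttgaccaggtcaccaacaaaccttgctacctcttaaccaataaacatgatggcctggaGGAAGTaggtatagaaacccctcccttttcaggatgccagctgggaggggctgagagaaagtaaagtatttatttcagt
Retnlg: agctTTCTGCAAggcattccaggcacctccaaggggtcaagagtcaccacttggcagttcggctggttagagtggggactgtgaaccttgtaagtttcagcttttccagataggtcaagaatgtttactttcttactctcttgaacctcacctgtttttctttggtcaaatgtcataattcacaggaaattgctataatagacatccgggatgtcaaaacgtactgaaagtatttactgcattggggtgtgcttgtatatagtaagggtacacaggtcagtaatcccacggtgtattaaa
The Ly6g window held 2 matches to the C/EBP letters, TTGAGCAA and TTTCTGAA, 1 to the Ets letters and 1 TATA box, whose first base is at -99 from the start. RefSeq lists another Ly6g start, whose window (chr15:75155079-75155378) overlaps this one and holds the Ets letters at 2 places. The Retnlg window held 1 match to the C/EBP letters, TTCTGCAA, with its first base at -246. No window of either gene held the Runx letters. Among 32851 promoter windows of this length, 40.7% held the C/EBP letters, 23.8% the Ets letters, 16.8% the Runx letters and 13.6% the TATA letters. The C/EBP letters shared by both genes are thus common, and the other letters were not shared.

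Retnlg was the most abundant of the 3 transcripts in myeloid cells. Its values are normalised reads, that is, recovered reads divided by the size factor of the library. They were 111985, 184629, 106691, 158434 and 107602 in myeloid replicates 1 to 5. In leukaemia replicates 1 to 5 they were 425, 78.3, 283, 98.5 and 237. Every leukaemia library lay below every myeloid library, and the lowest myeloid value was 251-fold above the highest leukaemia value. The means were 133868 ± 35664 in myeloid and 224 ± 142 in leukaemia cells (SD, n = 5 each), a 597-fold difference. On the deposited variance-stabilised log2 scale the difference was -7.64 (SE 0.195), and no gene among the 8079 over the filter on low values had a lower one. Retnlg alone made up 0.382% of the normalised reads of the table in myeloid cells.

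Wfdc21 had far fewer reads. Myeloid replicates 1 to 5 held 8223, 14955, 8830, 11109 and 9868 normalised reads, and leukaemia replicates 1 to 5 held 66.5, 103, 61.8, 43.3 and 38.0. The groups again did not overlap, with means of 10597 ± 2671 and 62.6 ± 25.8 (SD, n = 5 each), a 169-fold difference. The leukaemia values rest on between 41 and 140 recovered reads per library, so each carries a sizeable counting error. The log2 difference was -4.58 (SE 0.131), which ranked 22 from the lowest.

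Ly6g, the surface antigen, had the smallest difference of the 3. Myeloid replicates 1 to 5 held 11641, 21728, 11106, 15370 and 11525 normalised reads. Leukaemia replicates 1 to 5 held 234, 222, 249, 155 and 139, from 150 to 346 recovered reads. The means were 14274 ± 4508 and 200 ± 49.5 (SD, n = 5 each), 71.5-fold apart, and the groups did not overlap. The log2 difference was -4.47 (SE 0.156), ranked 25 from the lowest. Among the 8079 genes, 44.3% had all 5 leukaemia libraries below all 5 myeloid ones, in a table that was itself limited to genes with a difference. In these bulk samples, fewer neutrophils and less of a transcript per cell cannot be told apart.

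**Figure D1:**
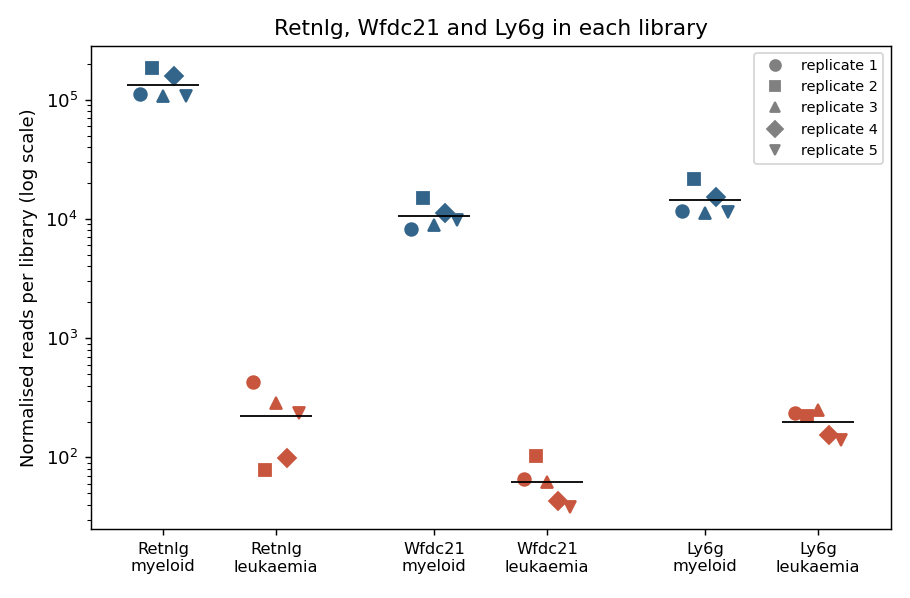
Normalised reads of Retnlg, Wfdc21 and Ly6g (log axis) in each of 5 myeloid (blue) and 5 leukaemia (red) libraries, with a marker shape for each replicate number and a line at the group mean. Each gene's leukaemia points lie below all its myeloid points. The Retnlg points in leukaemia spread from 78.3 to 425, wider than those of Ly6g (139 to 249).

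Levels of different genes were compared per kilobase of merged exons (GENCODE M21 models of 593 bases for Retnlg, 434 for Wfdc21 and 942 for Ly6g). On this scale Retnlg stood at 225747 ± 60141 normalised reads per kilobase in myeloid cells, Wfdc21 at 24416 ± 6155 and Ly6g at 15153 ± 4786. In leukaemia the levels per kilobase were 378 ± 240 for Retnlg, 144 ± 59.4 for Wfdc21 and 212 ± 52.5 for Ly6g (SD, n = 5). Retnlg was the highest in every myeloid library. In leukaemia replicate 2 it was the lowest of the 3, at 132 per kilobase against 238 for Wfdc21 and 235 for Ly6g.

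What remained in the leukaemia libraries was expressed as a percentage of the myeloid mean, called the residual. The Retnlg residual averaged 0.168% ± 0.106, that of Wfdc21 0.591% ± 0.243 and that of Ly6g 1.40% ± 0.347 (SD, n = 5 leukaemia libraries). By residual, counted from the lowest of the 8079 genes, Retnlg ranked 5, Wfdc21 30 and Ly6g 67. The 3 genes kept this order, Retnlg below Wfdc21 below Ly6g, in each of the 5 leukaemia libraries.

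The Retnlg residual did not follow the other two from library to library. Retnlg was at 0.318%, 0.0585%, 0.212%, 0.0736% and 0.177% in leukaemia replicates 1 to 5, a 5.43-fold span, lowest in replicates 2 and 4. Without replicates 2 and 4 of both groups its mean residual was 0.290%. Wfdc21 was at 0.627%, 0.976%, 0.584%, 0.409% and 0.359%, so that replicate 2, the lowest for Retnlg, was the highest for Wfdc21. Ly6g was at 1.64%, 1.55%, 1.74%, 1.08% and 0.975%, a 1.79-fold span, lower in replicates 4 and 5, the 2 lowest for Wfdc21 as well. Over the same libraries the summed reads of 14 mature neutrophil markers, none of them one of the 3 genes and some of them on the lists of secreted or surface proteins used further on, stayed between 2.37% and 2.47% of their myeloid mean. This sum is weighted to abundant genes: S100a9, Ngp, S100a8 and Cd177 made up 71.6% of it in leukaemia cells and each varied by at most 1.23-fold between leukaemia libraries. Less abundant markers in it varied more, Fpr1 by 3.41-fold, Mmp9 by 2.76-fold, Mmp8 by 2.48-fold and Cxcr2 by 1.96-fold from the lowest to the highest leukaemia library.

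Reads of 4 Y-linked genes, chosen after their values were seen, were set beside these residuals. Eif2s3y, Ddx3y, Kdm5d and Uty are found only in cells with a Y chromosome. Together they had between 6566 and 8997 recovered reads in each myeloid library and 49, 28, 79, 0 and 34 in leukaemia replicates 1 to 5. As a share of the myeloid mean these were 0.412%, 0.225%, 0.618%, 0% and 0.343%. The 0 reads of replicate 4 allow a share of up to 0.0277% (3 reads, counting error only). The Ly6g residual was above the Y-linked share in 5 of 5 leukaemia libraries, and that of Wfdc21 in 4 of 5. For Wfdc21 the order is unsure in replicates 3 and 5, as the values are close and the reads few. They were 0.584% (86 reads) against 0.618% (79 reads) and 0.359% (41 reads) against 0.343% (34 reads). The Retnlg residual was above the Y-linked share in 1 of 5, namely in replicate 4, where Retnlg still had 116 reads, Wfdc21 51 and Ly6g 182. The labels do not state whether the leukaemia cells came from a donor without a Y chromosome.

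**Figure D2:**
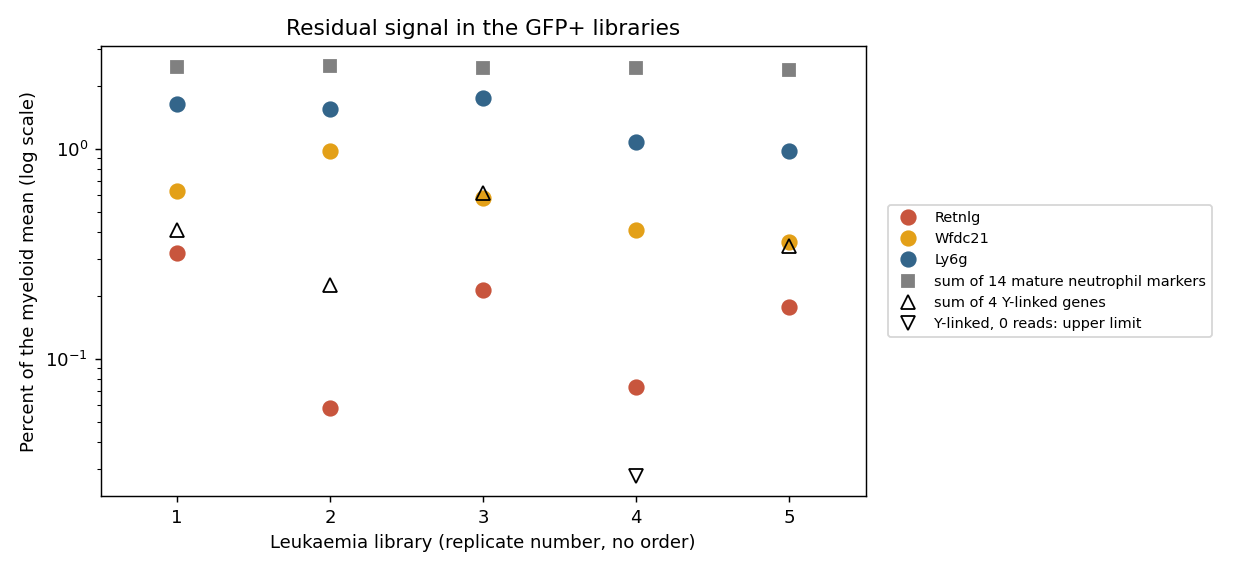
Residual of each gene in each leukaemia library, as a percentage of the myeloid mean (log axis), with the sum of 14 mature neutrophil markers (grey squares) and of 4 Y-linked genes (open triangles, pointing down for the upper limit where there were 0 reads). Ly6g lies above Wfdc21 and Retnlg in each library, and Retnlg spans 0.0585% to 0.318%. The marker sum, set mostly by 4 abundant genes, lies at 2.37% to 2.47%, while single markers in it varied by up to 3.41-fold.

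Ratios between the 3 transcripts were tight in myeloid cells and different in leukaemia. The ratio of Retnlg to Ly6g normalised reads was 9.62, 8.50, 9.61, 10.3 and 9.34 in myeloid replicates 1 to 5. In leukaemia replicates 1 to 5 it was 1.82, 0.353, 1.14, 0.637 and 1.70. The means of this ratio were 9.47 ± 0.653 and 1.13 ± 0.640, so the leukaemia libraries had 8.39-fold less Retnlg for the same Ly6g signal. The ratio of Retnlg to Wfdc21 was 12.6 ± 1.32 in myeloid and 4.05 ± 2.47 in leukaemia cells. The ratio of Wfdc21 to Ly6g was 0.754 ± 0.0702 in myeloid and 0.311 ± 0.0884 in leukaemia cells (SD, n = 5 each). For each ratio the highest leukaemia library lay below the lowest myeloid one. These ratios use the contrast on which the genes were picked and are given without a test.

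**Figure D3:**
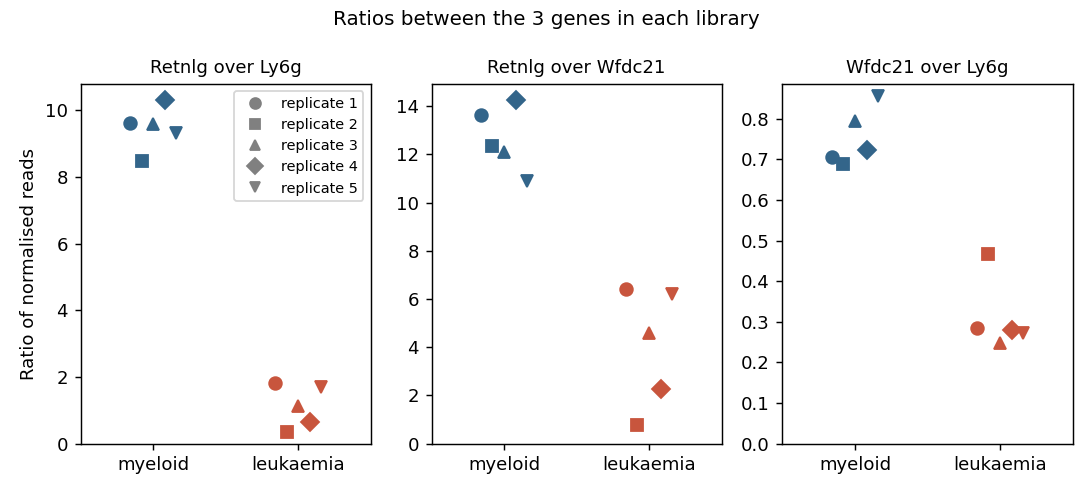
Ratio of normalised reads between pairs of the 3 genes in each library (linear axes from 0; blue, myeloid; red, leukaemia; marker shape, replicate number). Retnlg over Ly6g lies between 8.50 and 10.3 in myeloid libraries and between 0.353 and 1.82 in leukaemia libraries.

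Among the myeloid libraries the 3 genes moved together. Relative to the myeloid mean, replicate 2 stood at 138% for Retnlg, 141% for Wfdc21 and 152% for Ly6g. Replicate 4 stood at 118%, 105% and 108%. Replicates 1, 3 and 5 lay between 77.6% and 93.1% for all 3 genes. The summed mature neutrophil markers of these libraries followed the same order for replicates 2 and 4, with 4821160 and 4062100 normalised reads against 3061890 to 3391630 in the others. All 14 of these markers had replicates 2 and 4 as their 2 highest myeloid libraries, a pattern found in 32.1% of all tested genes. The summed dendritic cell markers went the other way (13 of 13 in the table, none at 0 reads in either group). Their sum was 6179 and 6524 in replicates 2 and 4 against 40911 to 63001 in the others. Most reads of this sum came from 4 genes of MHC class II presentation. These were Cd74 (myeloid mean 14564 of 32319), H2-Ab1 (5079), H2-Aa (4931) and H2-Eb1 (4078). Of 8 tested dendritic markers 0 had replicates 2 and 4 as the 2 highest, but Siglech, under the filter, did (375 and 319). Clec9a, also under the filter, did not set them apart (184 and 225 against 145 to 328). The summed monocyte markers (9 of 13 in the table, none at 0) also went the other way, at 100268 and 141897 against 179730 to 192440. Single monocyte markers differed. Of 9 tested 0 had replicates 2 and 4 as the 2 highest, but Fn1 was highest in replicate 4 (72187) and F13a1 lowest in replicate 1 (24875). The B cell sum was lower in replicates 2 and 4 too, at 537 and 483 against 1033 to 2249. So was the eosinophil sum, at 3751 and 3758 against 4235 to 6296. The macrophage and the basophil and mast cell sums were higher there. Of 6 tested macrophage markers 1, Slc40a1, had replicates 2 and 4 as the 2 highest, while Axl was lower there (57 and 97 against 917 to 1454). The remaining sums did not set both libraries apart. In leukaemia the dendritic sum ranged from 1064 to 2468 and the monocyte sum from 42917 to 81351. Of the other marker lists, 3 of 6 tested macrophage, 2 of 3 T and NK cell, 2 of 3 eosinophil and 3 of 4 basophil and mast cell markers were lower in leukaemia, with 1 higher in each list (limma, Benjamini-Hochberg adjusted p under 0.05). Of all 8079 tested genes, preselected for difference, 99.8% passed, 50.7% lower and 49.1% higher, and these counts of few markers are read against that share. Of the B cell and of the erythroid markers 1 each was tested, both higher, and no megakaryocyte marker was tested. Cd3g was the only marker at 0 reads in all leukaemia libraries. The part of the cell mixture in the spread of the 3 genes was not tested.

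**Figure D4:**
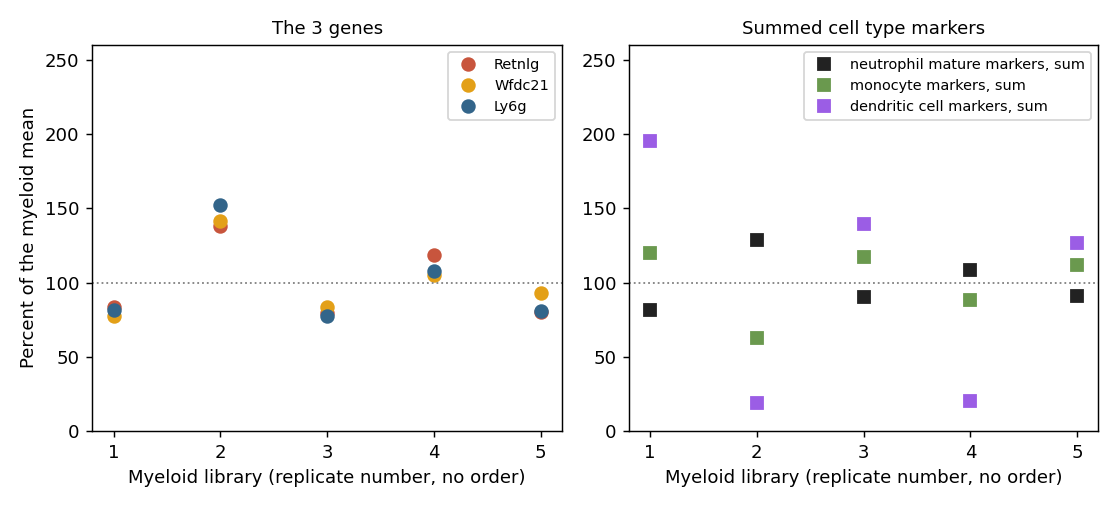
Left, Retnlg, Wfdc21 and Ly6g in each of 5 myeloid libraries as a percentage of their myeloid mean; right, summed reads of mature neutrophil, monocyte and dendritic cell markers on the same scale. Replicates 2 and 4 are above 100% for the 3 genes and the neutrophil sum, and below 100% for the monocyte and dendritic cell sums.

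Most genes on a list of other secreted neutrophil proteins were lower in leukaemia cells too. The list is a broad one. It also holds genes of membrane or intracellular proteins, such as Mmp25, Adam8 and Padi4, and Cd177, which is on the surface list as well. Of 36 listed genes, 35 were in the table and 32 were over the filter. Of these, 31 were lower and 1 was higher (limma, Benjamini-Hochberg adjusted p under 0.05), with a median log2 difference of -3.70. Over all tested genes 50.7% were lower and 49.1% higher, with a median of -0.16. Mmp9, a gelatinase, fell by 6.69 on the log2 scale, from 201587 ± 38107 normalised reads in myeloid to 1464 ± 564 in leukaemia cells (SD, n = 5 each, limma adjusted p = 6.18e-12). Slpi was the higher one. Mmp8, the neutrophil collagenase (-6.67), and Ltf, the iron-binding lactoferrin (-6.53), were the next lowest. Olfm4, a secondary granule glycoprotein gene, had a smaller difference, with 11520 ± 1351 in leukaemia against 22304 ± 4421 (log2 difference -0.90), and did not pass when reads were scaled to the table total. Serpinb1a, an inhibitor of neutrophil proteases, was lower by -0.45 on this scale and above 0 after quantile normalisation or scaling to the table total (log2 differences 0.14 and 0.18).

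Surface proteins gave the same direction. Of 52 listed genes, 51 were in the table, 49 were tested, 48 were lower and 1 was higher, with a median log2 difference of -2.39. The share over all tested genes was 50.7% lower and 49.1% higher. Cxcr2, the receptor that draws neutrophils out of the marrow, fell by 5.64, from 37392 ± 9868 to 279 ± 79.9 normalised reads (limma adjusted p = 9.45e-12). Fpr2, a formyl peptide receptor, had a log2 difference of -5.11, and Ifitm6, a myeloid membrane protein gene, of -4.88. Cxcr4, the marrow retention receptor gene, was at 8658 ± 764 in leukaemia against 15272 ± 2247, and did not pass when reads were scaled to the table total. Cd63, a granule membrane tetraspanin, was the higher member (0.45). Itgam, the gene of the CD11b used for the sort, was at 12227 ± 1128 in leukaemia and 97794 ± 13873 in myeloid cells.

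The residuals of Retnlg, Wfdc21 and Ly6g were set beside those of these lists as a description, since the 3 genes were chosen for this drop and their place is fixed by that choice. No tested gene of either list had a smaller residual than Retnlg. In each list 1 gene lay below Wfdc21: Chil1, a chitinase-like protein gene, at 0.364%, and Cd101, a surface protein of mature neutrophils, at 0.414%, named here after its value was seen. Below Ly6g lay 10 of 32 secreted and 6 of 49 surface genes. The median residual was 4.02% for the secreted list, 14.4% for the surface list and 86.2% for all tested genes.

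**Figure D5:**
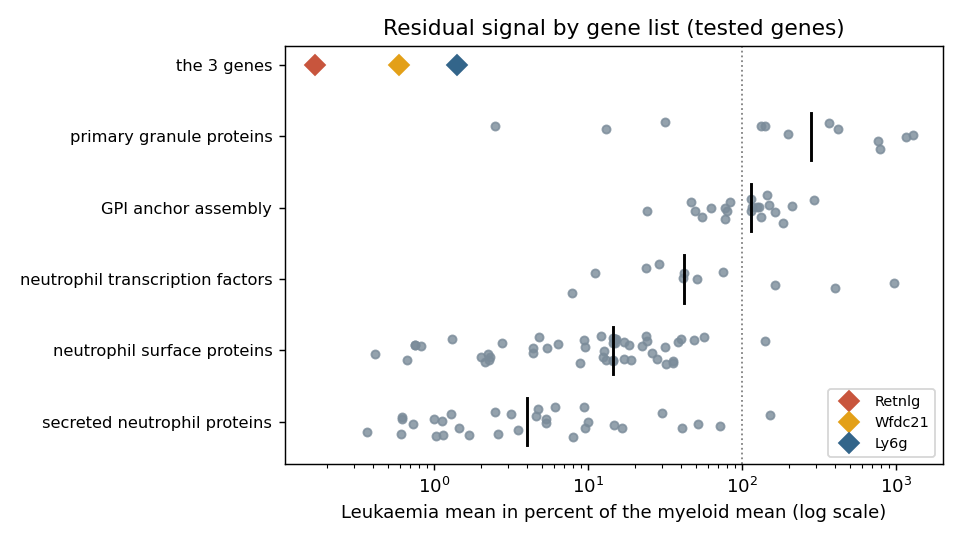
Leukaemia mean as a percentage of the myeloid mean (log axis) for each tested gene of 5 lists (points), with the list median (bar), and for Retnlg, Wfdc21 and Ly6g (diamonds). The dotted line marks equal means. Retnlg lies left of every list gene shown.

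Leukaemia replicates 2 and 4 were the 2 lowest for Retnlg, and for 15.7% of all tested genes. This held for 9 of 32 secreted and 10 of 49 surface genes. Osm, a cytokine gene of activated myeloid cells, had 714, 162, 552, 154 and 411 normalised reads in leukaemia replicates 1 to 5, and the formyl peptide receptor gene Fpr1 had 96.7, 31.0, 106, 34.8 and 80.7. Fpr1 matched Retnlg in myeloid cells as well, being highest in replicates 2 and 4 (12830 and 12002). Osm did not, with 4021 and 1537 there against 10153 to 10813 in the others. Both properties together, highest in myeloid and lowest in leukaemia replicates 2 and 4, were found in 6 secreted genes, 7 surface genes and 2.81% of all tested genes. Osm and Fpr1 were chosen for this paragraph after their values were seen.

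The relatives of the 3 genes by protein family went both ways. Of the resistin family only Retn was in the table, under the filter, with 34.5 ± 14.9 normalised reads in myeloid and 2.03 ± 2.00 in leukaemia cells. Of the WAP family, Wfdc17 was at 534 ± 114 in leukaemia against 1196 ± 522, and its difference did not pass when reads were scaled to the table total. Slpi, the secreted leukocyte protease inhibitor, was higher in leukaemia, at 21302 ± 4216 against 14048 ± 3524 (log2 difference 0.59, limma adjusted p = 0.00438). Of 31 Ly6 and uPAR domain relatives, 12 were in the table and 4 were tested, 3 lower and 1 higher. These few genes are read against the share over all tested genes, 50.7% lower and 49.1% higher. Plaur, the urokinase receptor gene, and Cd177, a GPI-anchored neutrophil antigen, both had a log2 difference of -3.35. Ly6g5b, a Ly6 family gene outside the Ly6g cluster, was at 74.3 ± 15.6 against 479 ± 78.0. Ly6k, a family member known from germ cells, was the higher one, with 1921 ± 181 normalised reads in leukaemia and 4 recovered reads in all 5 myeloid libraries together. With no filter on low values, 7 relatives were lower and 5 higher. Ly6 genes are close copies in part, and how the authors' counting divided reads among them is not given in the sources used here.

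Ly6g needs a GPI anchor to reach the surface, and the genes that build this anchor were divided much like all tested genes. Of 29 listed, 21 were tested, 12 higher and 9 lower, against 49.1% higher and 50.7% lower over all, with a median log2 difference of 0.14. Scaled to the table total, 16 were higher and 4 lower, beside 4621 higher and 2232 lower of all 8079 tested genes at that scaling. Pigt, a subunit of the transamidase that joins anchor and protein, was at 4452 ± 279 in leukaemia against 2427 ± 191. Pigw and Pigh, which act early in anchor assembly, were higher (log2 differences 0.54 and 0.56). Lower were Pgap1, which remodels the anchor after attachment (-1.04), Pigb, a mannosyltransferase (-0.84), and Pigx, a subunit of another mannosyltransferase (-0.71).

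Transcription factors of granulocyte development were divided. Of 11 tested, 8 were lower and 3 higher in leukaemia. Scaled to the table total, 6 were lower and 4 higher, beside 2232 lower and 4621 higher of all 8079 tested genes at that scaling. In the main fit 50.7% of all tested genes were lower and 49.1% higher, the share against which the other counts of this paragraph are read. Cebpe, which drives the secondary granule stage, was at 2753 ± 725 in leukaemia against 9540 ± 2257 (log2 difference -1.61, SE 0.169, limma adjusted p = 9.2e-07). The lowest log2 differences were those of Klf6 (-3.29), Klf5 (-1.90) and Cebpd (-1.77). Cebpa, which commits progenitors to the granulocyte path, was higher (0.58), as were Gfi1, a repressor needed for neutrophil formation (1.61), and Myb, a factor of proliferating progenitors (3.04). Primary granule genes stood opposite to the 3 genes: of 12 tested, 9 were higher and 3 lower. Ctsg (3.49), Elane (3.47) and Mpo (2.94), the genes of cathepsin G, neutrophil elastase and myeloperoxidase, had the highest log2 differences, and Serpinb10 (-3.28), Fcnb (-2.44) and Ctsc (-1.48) were lower. Markers of the MLL fusion programme were higher in 8 of 8 tested, and Hoxa9, one of them, was at 3215 ± 329 in leukaemia and 16.0 ± 5.30 in myeloid cells.

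Genes with the most similar profile were found by the root mean square difference over the 10 libraries between deposited log2 values, each gene centred on its own mean. This distance takes in the difference between groups, for which the 3 genes were chosen, so the neighbours are given as a description only. On this scale, which compresses low reads, Wfdc21 and Ly6g were each other's nearest neighbours, 0.12 log2 units apart. After Ly6g, the nearest to Wfdc21 were Camp, the cathelicidin gene (0.14), Mxd1, a Myc antagonist (0.14), Itgb2l, an integrin beta chain gene (0.15), and Il1f9, an interleukin-36 gene (0.16). After Wfdc21, the nearest to Ly6g were St3gal5, a ganglioside sialyltransferase gene (0.18), and Fpr1, Il1f9 and Itgb2l (0.19 each). Retnlg, whose log2 difference of -7.64 was the lowest of all tested genes, had no close neighbour. Mmp9 (-6.69) was at 0.49, Mmp8 at 0.54, Ltf at 0.59, Chil1 at 0.77 and Lcn2, the lipocalin gene, at 1.01. On log2 of normalised reads plus 1, none of the 5 nearest genes was shared with these for any of the 3. Wfdc21 and Ly6g were thus not among each other's 5 nearest there. The nearest were Pla2g7 for Retnlg (0.62), Mmp8 for Wfdc21 (0.33) and Ctse for Ly6g (0.27). For Retnlg, H2-Q10 (0.63) and the Y-linked Eif2s3y (0.71) ranked next.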

How the data were processed

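The authors deposited 1 table of log2 values for 10141 genes in 10 libraries, which its name describes as normalised counts after variance stabilisation. HISAT2 (2.0.4 and 2.2.1) and DESeq2 were used by the authors, per the submitters' processing notes, and the genome build, annotation, counter and strand setting are not given in the sources used here. The table was limited to genes that differ (highest unadjusted p 0.243), so adjusted p-values and shares describe a selected set. Normalised reads were computed as (V - V0) squared over V, with V the power of 2 of a value and V0 that of the shared lowest value, 8.1823, assuming the parametric form of the transformation. Low values up to 300 reads then fell on whole reads within 0.1 for 100% of them in each library. Libraries held 24099551 to 32247804 recovered reads in these genes, a depth for the table and not for sequencing. Intervals and limits cover counting error only.

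limma 3.58.1 (R 4.3.3) with a trended prior compared leukaemia with myeloid, two-sided, for 8079 genes whose mean lay over 1 unit above the lowest value (about 145 normalised reads). The fit was tested on simulated data. The 3 genes, the 19 gene lists (8 by protein role, 11 of cell type markers) and the alternatives were chosen with earlier results of these data known. Named genes were the 3, their 5 nearest, at most the 3 highest and 3 lowest passing members of each of 8 lists with the most abundant tested member that did not pass (there was none), the WAP and resistin relatives, Itgam, Hoxa9, Cebpe, Gfi1 and Cebpa. The protocol gives flow cytometry for the myeloid sort and the design text gives magnetic sorting of CD45.2- CD11b+ cells. Marker lists served to describe the cell mixture. Motif letters were searched in RefSeq windows. Promoter sequence for Wfdc21 was not used here. A gene that the naming rule takes from the surface list is not reported here.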

Additional observations from a re-analysis of the deposited data

Results flagged for a closer look

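The ratio of Wfdc21 to Ly6g in leukaemia replicate 2 stood apart from the other leukaemia libraries. It was 0.467, against 0.249 to 0.284 in the others, and the gap made up 0.838 of the whole range, where 0.71 is the critical value of Dixon's test for 5 samples. Chance flags about 1 in 20 such groups, and 18 were checked, so about 1 flag is what chance gives. The same library had the lowest Retnlg and the highest Wfdc21 value of the leukaemia group. It rests on 140 recovered reads of Wfdc21 and 300 of Ly6g. No value of the 3 genes alone was set apart in this way in either group.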

How the results depend on the processing

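The residuals depended on the scale. Taken as 2 to the difference of deposited values they were 0.50% for Retnlg, 4.18% for Wfdc21 and 4.5% for Ly6g, because that scale compresses low reads. Scaled to the table total they were 0.265% for Retnlg, 0.929% for Wfdc21 and 2.21% for Ly6g. The Ly6g residual was 1.90% from medians, 1.75% without myeloid replicates 2 and 4, and 1.82% without replicates 2 and 4 of both groups, a setting chosen after seeing the data, which gave 0.290% for Retnlg. Leaving out 1 library at a time gave 0.130% to 0.195% for Retnlg, 0.495% to 0.659% for Wfdc21 and 1.31% to 1.61% for Ly6g. Scaling to the table total raised the median log2 difference of all tested genes by 0.64, and quantile normalisation by 0.25. Of the genes past the threshold 49.2% were higher with the authors' size factors and 67.4% with the table total, which left 2232 lower genes in place of 4097. A stricter filter on low values left 2415 higher genes in place of 3965 and 0 higher Ly6 relatives, as fewer genes were tested, and no filter gave 5 higher and 7 lower Ly6 relatives. Scaled to the table total, 0 WAP relatives and 4 GPI anchor genes were lower. Serpinb1a turned to 0.14 after quantile normalisation and 0.18 with the table total. Among the 5 genes nearest to Retnlg, Wfdc21 and Ly6g, 0 were shared when log2 of normalised reads plus 1 was used. A replicate block gave 8018 genes past the threshold against 8062, and 31 and 48 lower genes in the secreted and surface lists, as without it. Libraries with the same number had correlated deviations of 0.13, 0.23, 0.32, 0.29 and -0.02 (replicates 1 to 5). The highest correlations with another number were 0.11, 0.35, 0.33, 0.05 and 0.27. These values cannot show whether a shared number marks the same mouse. The main fit did not take the numbers as pairs.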
